A study of Mus musculus with 12 samples.

Results

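The 36 genes described here encode the machinery of endoplasmic reticulum (ER) associated degradation, or ERAD. They were chosen by name, as a list of lectins, membrane proteins, ubiquitin enzymes and extraction cofactors of this pathway, and all 36 were found among the 57010 genes of the table (Hm13 under its other symbol, H13). All 36 also passed the filter on low counts, which kept 16502 genes. RNA-Seq was performed on 12 libraries of NE-4C cells, an immortalized line from embryonic mouse brain that lacks p53 and is used as a model of neural progenitors. Wild-type (WT) cells and Faf2 knockout (KO) cells were either untreated (WT NO and KO NO, day 0) or given 1 µM all-trans retinoic acid (RA) for 24 h and collected on day 3 (WT RA and KO RA). Each of these groups had 3 libraries, from separate passages. The KO cells are a single line grown from a picked colony after CRISPR/Cas9 deletion of exon 4 of Faf2, so that differences between KO and WT cannot be told apart from differences between this line and its parent. The p-values measure the spread between cultures of each line.

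ERAD removes proteins that fail to fold in the ER. Lectins and mannosidases recognize the glycans of such proteins, membrane complexes pass them across the ER membrane, ubiquitin ligases with their E2 enzymes mark them, and the ATPase p97 (gene Vcp) pulls them out for destruction by the proteasome. FAF2 is one of the adaptors that hold p97 at the ER membrane. Many genes of the pathway are also targets of the unfolded protein response (UPR), which acts through the transcription factors ATF6, XBP1 and ATF4. The comparison of KO with WT cells asks how the RNA of the pathway stands when one of its adaptors is lost. The comparison of RA with NO asks the same for neural induction. No untreated group was collected on day 3, so that effects of RA cannot be told apart from those of time in culture. Differences between RA and NO, called RA responses below, hold both.

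The libraries held 17370069 to 30738717 estimated counts. Levels are given as CPM, the counts of a gene scaled to the same total in each library, with scaling factors from edgeR's TMM method. The deposited counts are already corrected for transcript length, so that levels of different genes can be compared. One library stood apart, the third KO RA library. Its TMM factor was 0.394, against 0.872 to 1.28 in the other 11 libraries. Its 100 most abundant genes took 62.5% of its counts (37.1% to 50.4% in the others) and its mitochondrial genes 23.5% (9.10% to 17.7%). It was the highest of all libraries for 10 of the 36 ERAD genes and the lowest for 13, and it was the highest or lowest for 62.5% of all genes tested (5.79% to 19.2% in the other libraries). Counts of called members are therefore given with and without it. Faf2 itself was at 50.01, 38.8 and 35.98 CPM in WT NO and at 21.0, 21.7 and 25.4 CPM in KO NO, without overlap. Between these groups its log2 fold change was −0.87, with a standard error (SE) of 0.27 and an adjusted p = 0.179 in the quasi-likelihood test of edgeR. The adjusted p was 0.0111 in edgeR without the third KO RA library, and with all libraries 0.0142 in DESeq2 and 0.00134 in limma-voom. After RA, Faf2 was at 35.1, 37.9 and 49.1 CPM in WT and at 36.1, 34.3 and 18.7 CPM in KO, and the groups overlapped. The difference after RA was −0.45 on the log2 scale (edgeR adjusted p = 0.395) and −0.21 without the third KO RA library (edgeR adjusted p = 0.489). A deletion of one exon need not remove the other exons from the count. Most genes tested on the chromosome of Faf2 were also lower in KO cells, as described below. The 8 progenitor markers differed widely in WT NO. Vim was at 178 to 231 CPM, Otx2 at 120 to 163 CPM, Nes, Cdh2, Sox2 and Msi1 each between 23.7 and 60.5 CPM, Pax6 at 4.12 to 9.30 CPM and Sox1 at 0.153 to 0.813 CPM. The pluripotency factor Pou5f1 was at 1149 to 2278 CPM in the same libraries.

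In untreated WT cells, the ERAD genes were expressed at very different levels. Of the 36, 33 had a mean above the median of all genes tested, which was 7.50 CPM, and none was at or below 3 counts in any library. The highest was Rad23b, which brings ubiquitinated proteins to the proteasome. It was at 807, 838 and 554 CPM and made up 32.4% to 37.1% of the summed level of the 36 genes. Next came the E2 enzyme Ube2k, at 321, 359 and 203 CPM. It was followed by Bag6 (188, 173 and 170 CPM), a chaperone that holds released membrane proteins in the cytosol. The E2 enzyme Ube2j2 was at 104 ± 18.5 CPM (SD, n = 3) and Aup1, which recruits an E2 enzyme to the membrane, at 68.2 ± 9.74 CPM. In each of the 4 neighbouring pairs among these 5 genes, every library of the higher gene lay above every library of the lower one.

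At the other end stood Tmub1 (5.23 ± 0.663 CPM), Derl3 (2.85 ± 0.608 CPM) and Yod1 (1.31 ± 0.460 CPM), whose library ranges were also separate. Between Aup1 and Tmub1, no neighbours in the order differed beyond their spread, and 29 of the 35 neighbouring pairs overlapped in all. The 7 genes of recognition ran from Dnajb9, a chaperone of the ER lumen (8.47 ± 3.27 CPM), to the mannosidase Man1b1 (25.9 ± 3.66 CPM). Their summed level was the steadiest of the 6 steps, at 111 ± 2.87 CPM (SD, n = 3) in WT NO. Single genes of this step varied more and in opposite directions. Erlec1 was at 17.6, 10.8 and 28.8 CPM and Edem1 at 21.5, 25.0 and 14.7 CPM in the same libraries. The central ligase Syvn1 (HRD1) was at 31.8 ± 8.78 CPM and its partner Sel1l at 19.8 ± 5.13 CPM. The summed level of all 36 genes was 2073 ± 314 CPM in WT NO and 2122 ± 94.1 in KO NO, and after RA 1810 ± 75.4 in WT and 1965 ± 147 in KO. The ranges of these sums overlapped between WT NO and KO NO.

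**Figure D1:**
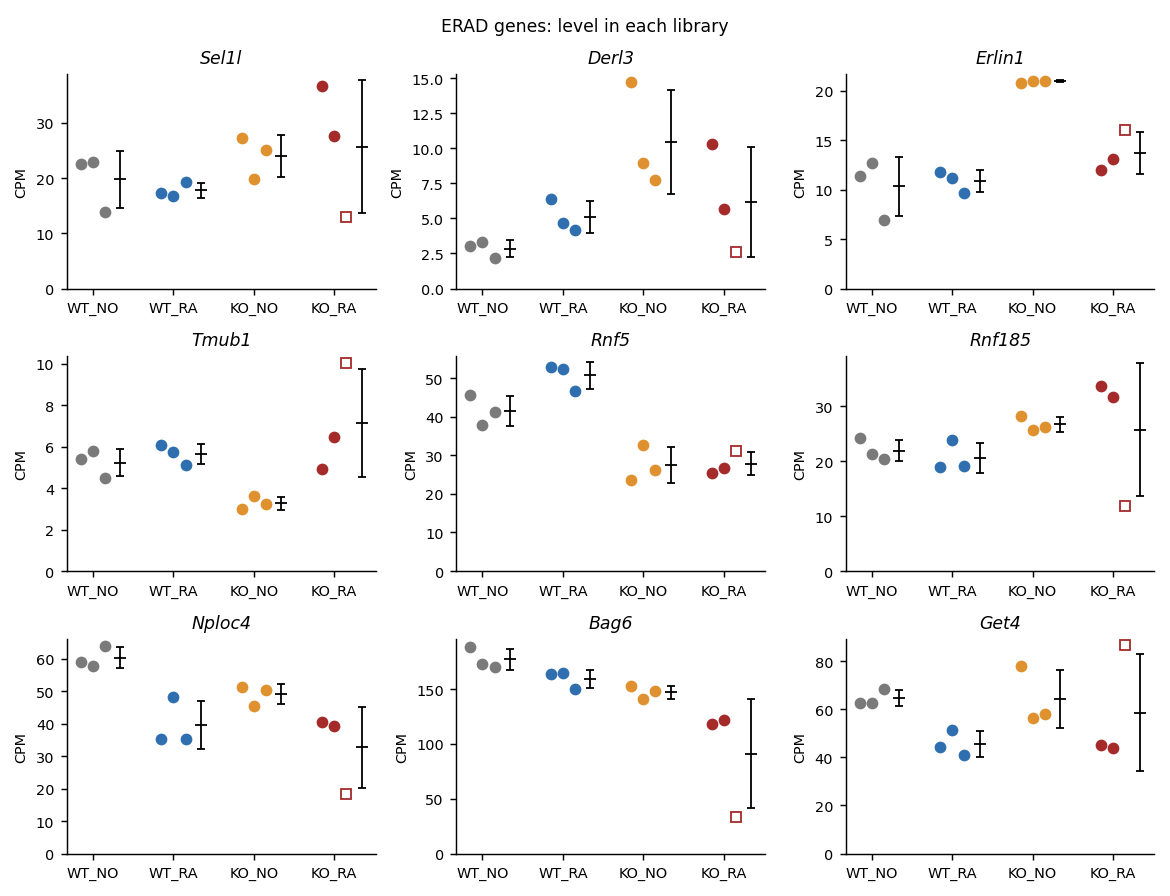
Level in CPM (y axis, from 0) of the 9 ERAD genes that were called in a comparison with all libraries or without the third KO RA library. Points are libraries, the open square is the third KO RA library, and bars are the mean ± SD of 3 libraries. Derl3 and Erlin1 are higher in each KO NO library than in each WT NO library, and Rnf5 is lower in both KO groups than in their WT groups.

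The promoters of the pathway were searched for letters that UPR factors are known to bind, because several members are textbook UPR targets. The motifs were ERSE (CCAAT, any 9 bases, CCACG), ERSE-II (ATTGG, any 1 base, CCACG), UPRE (TGACGTGG), CRE (TGACGTCA) and the amino acid response element (TGATGCAA), each on both strands. A RefSeq table with 250 bases before to 50 after each gene's start (assembly GRCm38.p6) held 28 of the 36 genes. It held no entry for Aup1, Derl1, Erlec1, Erlin2, Rnf139, Rnf5, Tmub2 and Ube2g2. At least 1 motif was found in 4 of the 28 genes, against 3.91% of all 27025 genes in the table. The ERSE was found in Derl3 and Syvn1 (0.137% of all genes). The ERSE-II (0.0444%) and the amino acid response element (1.03%) were both found in Herpud1, and the UPRE (0.714%) in Ube2j1. The CRE was in none of them (2.03% of all genes). The UPRE letters share 5 bases with the end of the ERSE, and in these 4 genes no match lay within another. The stretches around the matches are shown with 30 bases on each side, cut at the start site, with the letters of the motif in capitals. Their positions are from exact matches to GRCm39, all on the forward strand, at chr10:75729046-75729124, chr8:95112915-95113045, chr19:6096532-6096605 and chr4:33031282-33031349 in the order printed.
Derl3: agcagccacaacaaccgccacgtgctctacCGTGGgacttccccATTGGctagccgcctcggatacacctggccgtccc
Herpud1: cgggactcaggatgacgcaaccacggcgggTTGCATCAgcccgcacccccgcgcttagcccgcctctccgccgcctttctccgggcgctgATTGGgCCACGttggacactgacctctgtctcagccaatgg
Syvn1: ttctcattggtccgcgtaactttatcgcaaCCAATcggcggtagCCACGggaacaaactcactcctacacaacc
Ube2j1: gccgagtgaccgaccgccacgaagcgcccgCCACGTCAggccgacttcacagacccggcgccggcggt
The ERSE of Derl3 lies on the reverse strand, from 156 to 138 bases before the start, and that of Syvn1 on the forward strand, from 44 to 26 bases before it. In Herpud1, the element that is read in reverse lies 112 to 105 bases before the start, and the ERSE-II 52 to 42 bases before it. In KO NO against WT NO, the log2 fold change was 1.88 for Derl3, 0.43 for Syvn1, 0.39 for Herpud1 and 0.04 for Ube2j1 (edgeR adjusted p = 0.0847, 0.761, 0.747 and 0.994). The members searched without a match ran from −0.67 (Tmub1) to 1.02 (Erlin1). A link between motif and level was not tested.

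Loss of FAF2 in untreated cells was compared first (KO NO against WT NO). The largest differences among the ERAD genes were at the membrane, where Derl3 and Erlin1 were higher in every KO NO library. Derl3 is a derlin, one of the membrane proteins that form the path out of the ER. It was at 3.06, 3.33 and 2.17 CPM in WT NO and at 14.7, 8.95 and 7.76 CPM in KO NO, without overlap. Its log2 fold change was 1.88 (SE 0.45), with an edgeR adjusted p = 0.0847 over all libraries. Without the third KO RA library, which is in neither group but enters the shared estimate of the spread, the same difference had an adjusted p = 0.00746 in edgeR. Erlin1, which with Erlin2 forms the complex that hands membrane proteins such as the IP3 receptor to ERAD, was at 11.3, 12.7 and 6.96 CPM in WT NO. In KO NO it was at 20.8, 21.0 and 21.0 CPM, so that the KO libraries were nearly identical and all above WT. The difference on the log2 scale was 1.02 (SE 0.24), with an edgeR adjusted p = 0.0787 over all libraries and 0.0117 without the third KO RA library. DESeq2's Wald test on all libraries called both Derl3 (adjusted p = 0.00161) and Erlin1 (adjusted p = 0.00803).

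No ERAD gene passed an adjusted p of 0.05 in edgeR with all 12 libraries in KO NO against WT NO, where 1.14% of all genes did. At an unadjusted p under 0.05, 4 of the 36 were higher and 2 lower (12.2% of all genes passed). Without the third KO RA library, 3 of 36 were called (8.78% of all genes), with Derl3 and Erlin1 higher and Rnf5 lower. DESeq2 called 2 of 36 (5.68% of all genes) and limma-voom with quality weights 8 of 36 (21.6%). The KO NO libraries all lay above the WT NO libraries for 8 of 36 members (15.5% of all genes) and all below them for 4 of 36 (15.2% of all genes). The median log2 fold change of the members was 0.10, against −0.02 over all genes tested. For 22 of the 36 members, the 95% interval of the difference lay within 2-fold in both directions.

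By step, the membrane core held 5 of the 8 members that were higher without overlap, which were Derl1, Derl3, Erlin1, Erlin2 and Herpud1, and 1 of the 4 lower ones, Tmub1. Tmub1, a small ubiquitin-like membrane protein of the erlin-linked ligases, was at 5.42, 5.77 and 4.49 CPM in WT NO and at 2.99, 3.61 and 3.21 CPM in KO NO (log2 fold change −0.67, SE 0.28, edgeR adjusted p = 0.345). Among the genes of recognition, Edem3, a mannosidase-like protein that trims glycans of ERAD substrates, had the smallest p. It was at 13.7, 15.0 and 8.85 CPM in WT NO and at 18.9, 18.7 and 19.6 CPM in KO NO, with a log2 fold change of 0.61 (SE 0.27, edgeR adjusted p = 0.398). The ranges of the other 6 genes of recognition overlapped between the groups.

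The 4 ubiquitin ligases were divided. Rnf5, a ligase of the ER membrane, was at 45.6, 37.8 and 41.1 CPM in WT NO and at 23.7, 32.8 and 26.2 CPM in KO NO, all below WT. Its log2 fold change was −0.59 (SE 0.19), with an edgeR adjusted p = 0.204 over all libraries and 0.0254 without the third KO RA library. Rnf185, its close relative, was at 24.1, 21.2 and 20.4 CPM in WT NO and at 28.3, 25.6 and 26.1 CPM in KO NO, all above WT. The 4 E2 enzymes all overlapped between the groups, with log2 fold changes from −0.04 to 0.12, and Ube2j2, which had the smallest p of them, had an edgeR adjusted p = 0.933.

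Among the genes of extraction by p97, the deubiquitinase Yod1 stood at 1.37, 1.74 and 0.824 CPM in WT NO and at 2.08, 2.61 and 2.99 CPM in KO NO (log2 fold change 0.96, SE 0.34, edgeR adjusted p = 0.253). Nploc4, which with Ufd1 forms the main cofactor of p97, was at 59.1, 57.7 and 63.9 CPM in WT NO and at 51.3, 45.5 and 50.4 CPM in KO NO, also without overlap and in the other direction (log2 fold change −0.30). In the cytosol, Bag6 was at 153, 141 and 148 CPM in KO NO, below every WT NO library, with a log2 fold change of −0.27 (SE 0.38, edgeR adjusted p = 0.900). Get4 and Ubl4a, which form a complex with Bag6, overlapped between the groups.

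**Figure D2:**
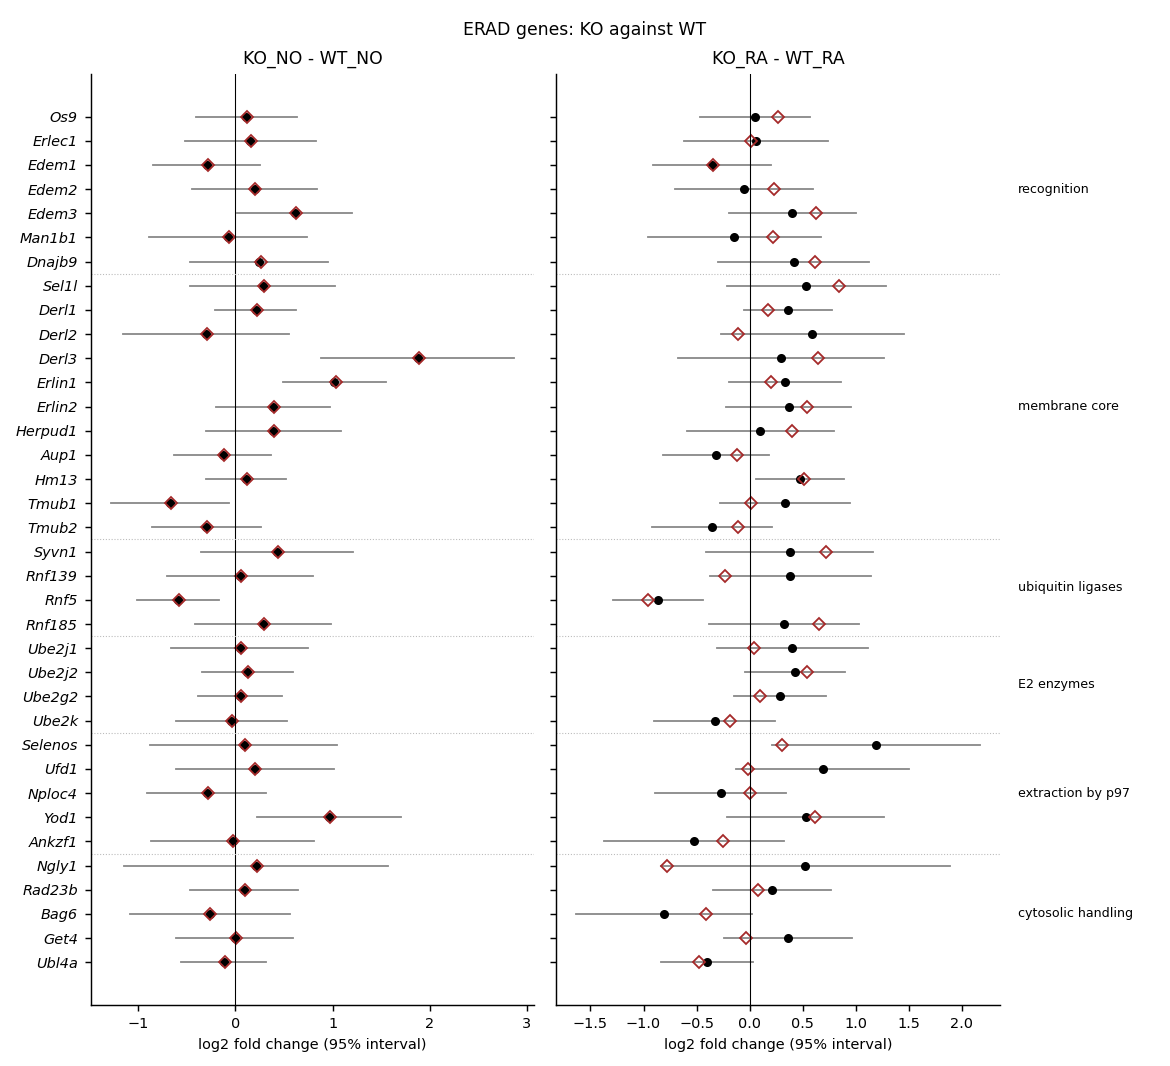
Log2 fold change (x axis) of the 36 ERAD genes between KO and WT, untreated on the left and after RA on the right, ordered by step. Black points are edgeR estimates over all 12 libraries with 95% intervals, and open diamonds are estimates without the third KO RA library. Derl3 lies farthest to the right in untreated cells, at 1.88, and Rnf5 is left of 0 in both comparisons.

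After RA, the ERAD genes of KO cells were compared with those of WT cells (KO RA against WT RA). Rnf5 was the member with the smallest p. It was at 52.9, 52.4 and 46.7 CPM in WT RA and at 25.5, 26.8 and 31.2 CPM in KO RA, the third library included, so that all KO values lay below all WT values. The log2 fold change was −0.86 (SE 0.19), with an edgeR adjusted p = 0.0563 over all libraries and 0.00618 without the third KO RA library. DESeq2 on all libraries gave an adjusted p = 0.00614. Bag6 was also lower in all KO RA libraries, at 118, 122 and 33.7 CPM against 164, 164 and 150 CPM in WT RA. This is a log2 fold change of −0.80 (SE 0.38, edgeR adjusted p = 0.296) with the third library and −0.42 (SE 0.10, edgeR adjusted p = 0.0317) without it.

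Sel1l and Rnf185 were called higher in KO RA once the third library was left out. Sel1l, the adaptor that ties substrates and lectins to the ligase Syvn1, was at 17.3, 16.7 and 19.3 CPM in WT RA and at 36.7, 27.6 and 12.9 CPM in KO RA. With the third value its log2 fold change was 0.54 (SE 0.34, edgeR adjusted p = 0.427), and without it 0.85 (SE 0.23, edgeR adjusted p = 0.0401). Rnf185 was at 18.9, 23.8 and 19.2 CPM in WT RA and at 33.6, 31.7 and 11.8 CPM in KO RA. Its log2 fold change was 0.32 (edgeR adjusted p = 0.634) with the third library and 0.66 (edgeR adjusted p = 0.0171) without it. For both genes, 2 KO RA libraries lay above WT RA and the third below it. Syvn1 followed the same order, at 23.6, 23.8 and 21.5 CPM in WT RA and at 40.1, 35.9 and 13.2 CPM in KO RA, and had an edgeR adjusted p = 0.613 with the third library and 0.0506 without it. Hm13, the signal peptide peptidase, was at 15.9, 16.6 and 14.6 CPM in WT RA and at 20.6, 24.3 and 20.5 CPM in KO RA. The difference on the log2 scale was 0.47 (SE 0.19), with an adjusted p = 0.237 in edgeR and 0.0487 in DESeq2, and 0.51 without the third library (edgeR adjusted p = 0.0676).

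No ERAD gene was called by edgeR over all libraries in KO RA against WT RA (1.24% of all genes). At an unadjusted p under 0.05, 2 were higher and 1 lower (17.6% of all genes passed). Without the third KO RA library 4 of 36 were called (9.85% of all genes), with 2 higher and 2 lower. DESeq2 called 2 of 36 (7.54%), Hm13 higher and Rnf5 lower, and limma-voom called 9 of 36 (18.1%). The libraries did not overlap for 6 members higher in KO RA (9.97% of all genes) and 5 lower (10.9%). Without the third library these numbers were 14 higher (25.7% of all genes) and 7 lower (22.2%). The median log2 fold change of the members was 0.33 with all libraries and 0.09 without the third, against 0.09 and 0.01 over all genes tested. Of the 14 that were higher without the third library, 4 belonged to recognition (Os9, Edem2, Edem3 and Dnajb9) and 5 to the membrane core (Sel1l, Derl1, Erlin1, Herpud1 and Hm13). The 95% interval with all libraries lay within 2-fold for 20 of the 36 members.

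Derl1, Erlin1 and Yod1 were higher without overlap in both KO comparisons, untreated and after RA (3.35% of all genes were), and Rnf5 and Bag6 were lower in both (3.68% of all genes). These comparisons share no libraries, but share the estimate of the spread.

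Over all libraries, edgeR called no derlin or erlin in either KO comparison. Without the third KO RA library it called only Derl3 and Erlin1 of them, in untreated cells. Derl1 was at 24.1, 24.4 and 26.1 CPM in WT NO and at 29.1, 28.3 and 28.9 CPM in KO NO. After RA it was at 26.2, 29.0 and 25.0 CPM in WT and at 30.4, 30.02 and 42.9 CPM in KO. Its log2 fold change between KO and WT was 0.21 untreated (edgeR adjusted p = 0.789), and after RA 0.36 (edgeR adjusted p = 0.336) with the third KO RA library and 0.17 (edgeR adjusted p = 0.373) without it. Derl2 was at 40.6, 33.5 and 21.5 CPM in WT NO and at 26.7, 25.5 and 25.2 CPM in KO NO. RA-treated WT cells had 22.3, 18.2 and 23.7 CPM of Derl2 and KO cells 20.0, 19.8 and 57.4 CPM. The KO and WT libraries overlapped in both conditions. The difference was −0.31 untreated (edgeR adjusted p = 0.887), and after RA 0.59 with the third library and −0.11 without it (edgeR adjusted p = 0.451 and 0.797). In limma-voom, the untreated difference of Derl2 was −0.49 (adjusted p = 0.0250). Erlin2 was at 19.6, 18.7 and 12.8 CPM in WT NO and at 25.2, 16.7 and 19.7 CPM in WT RA. Its difference was 0.39 untreated (edgeR adjusted p = 0.666), and after RA 0.37 with the third library and 0.54 without it (edgeR adjusted p = 0.496 and 0.163). In KO RA, Derl3 was at 10.3, 5.66 and 2.58 CPM and overlapped WT RA, with a log2 fold change of 0.30 with the third library and 0.64 without it (edgeR adjusted p = 0.766 and 0.268). For Erlin1, which was at 11.8, 11.2 and 9.65 CPM in WT RA, the same values were 0.33 and 0.20 (edgeR adjusted p = 0.491 and 0.601).

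Rnf5 (chromosome 17, 34820060 to 34822693, GRCm39) and Bag6 (chromosome 17, 35353937 to 35366298) lie on the same chromosome, and most genes tested on that chromosome were lower in KO cells. The median log2 fold change of the 794 genes tested on chromosome 17 was −0.47 in KO NO against WT NO and −0.46 in KO RA against WT RA, and 84.8% and 71.2% of them were lower in the KO. Chromosome 13, which carries Faf2 and no ERAD member, had medians of −0.36 and −0.15. Its median after RA was −0.43 without the third KO RA library. Relative to its chromosome with all libraries, the log2 fold change of Faf2 was −0.51 untreated and −0.30 after RA. Without the third library, the difference of Faf2 after RA given above was smaller in size than the median of its chromosome. On the other 18 chromosomes the medians lay between −0.15 and 0.17 untreated and between −0.06 and 0.30 after RA. With all libraries, the log2 fold change of Rnf5 relative to the median of its chromosome was −0.13 untreated and −0.40 after RA. That of Bag6 was 0.20 and −0.34. Without the third KO RA library, the median of chromosome 17 after RA was −0.49, beside −0.96 for Rnf5 and −0.42 for Bag6. Bag6 was thus not below the median of its chromosome once that library was left out. The part of the chromosome in the values of Rnf5, Bag6 and Faf2 was not tested.

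**Figure D3:**
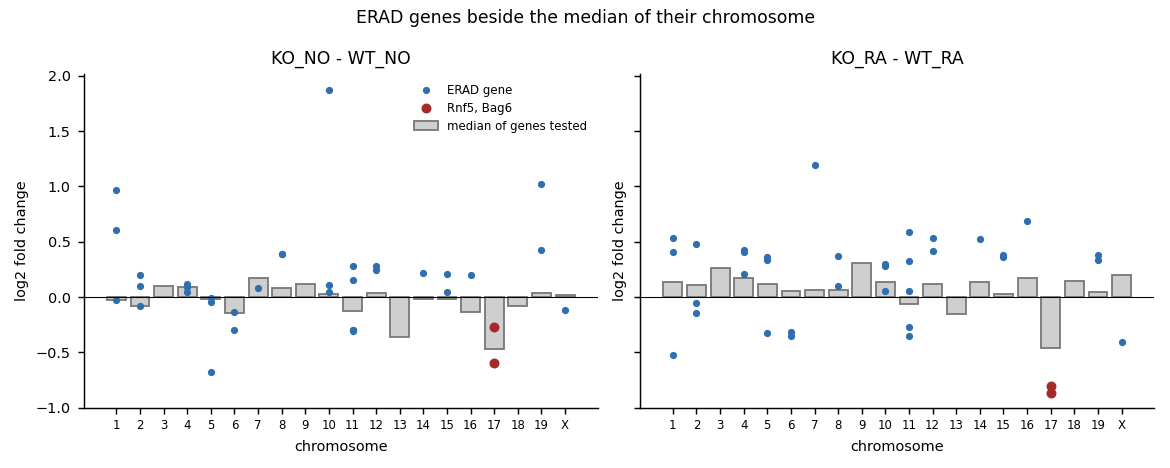
Log2 fold change between KO and WT (y axis) by chromosome (x axis), untreated on the left and after RA on the right. Bars are the median of all genes tested on a chromosome and points are the ERAD genes, with Rnf5 and Bag6 as larger points. The bar of chromosome 17 is near −0.47 untreated and −0.46 after RA, and both of its ERAD genes lie below 0.

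Retinoic acid was then followed in WT cells (WT RA against WT NO), where no ERAD gene was called over all libraries. The largest difference upward was that of Yod1, at 2.16, 2.81 and 2.20 CPM in WT RA, above every WT NO library (log2 fold change 0.87, SE 0.34, edgeR adjusted p = 0.321). Derl3 was at 6.39, 4.66 and 4.20 CPM in WT RA, also above every WT NO library, with a log2 fold change of 0.83 (SE 0.45, edgeR adjusted p = 0.493). Downward, Nploc4 was at 35.3, 48.3 and 35.2 CPM in WT RA, below every WT NO library. Its log2 fold change was −0.61 (SE 0.28), with an edgeR adjusted p = 0.408 over all libraries and 0.0199 without the third KO RA library. Get4, which passes tail-anchored membrane proteins on together with Bag6, was at 62.8, 62.5 and 68.3 CPM in WT NO and at 44.4, 51.4 and 40.9 CPM in WT RA. This is a log2 fold change of −0.50 (SE 0.27), with an edgeR adjusted p = 0.507 and 0.0485 without the third KO RA library.

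The E2 enzymes lay on the same side, with log2 fold changes from −0.45 to −0.15 for all 4. Ube2j2, which had the smallest p, was at 117, 111 and 82.7 CPM in WT NO and at 71.4, 74.7 and 81.0 CPM in WT RA, without overlap (edgeR adjusted p = 0.420). Among the ligases, Rnf5 was above every WT NO library in WT RA, with a log2 fold change of 0.29 (edgeR adjusted p = 0.607), opposite in sign to its difference between KO and WT. Among the genes of recognition, Dnajb9 had the smallest p and overlapped between the groups, at 11.2, 9.31 and 4.85 CPM in WT NO and 10.9, 8.92 and 12.1 CPM in WT RA (edgeR adjusted p = 0.763).

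No ERAD gene was called by edgeR over all libraries in WT RA against WT NO (0.406% of all genes), and 1 of 36 passed an unadjusted p of 0.05 (12.5% of all genes). Without the third KO RA library 2 of 36 were called, both lower (10.8% of all genes). DESeq2 on all libraries called none (4.91%), and limma-voom called 10 of 36 (21.6%), of which 9 were lower. The WT RA libraries lay above the WT NO libraries for 7 members (15.1% of all genes) and below for 5 (14.0%). The median log2 fold change of the members was 0.02, against −0.01 over all genes, and the 95% interval lay within 2-fold for 24 of the 36.

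In KO cells, RA was followed by a higher level of Tmub1, the only ERAD gene called over all libraries in edgeR (KO RA against KO NO). Tmub1 was at 2.99, 3.61 and 3.21 CPM in KO NO and rose to 4.92, 6.47 and 10.0 CPM in KO RA, without overlap. The log2 fold change was 1.12 (SE 0.28, edgeR adjusted p = 0.0436), and without the third KO RA library, which had the highest value, 0.79 (SE 0.21, edgeR adjusted p = 0.0283). The call also held without the first KO RA library or the third WT NO library, and was lost when any of the other 9 libraries was left out (edgeR adjusted p = 0.0528 to 0.180). In WT cells, Tmub1 was at 4.49 to 5.77 CPM untreated and 5.11 to 6.06 CPM after RA. The difference between the RA responses of KO and WT was 1.01 (SE 0.39, edgeR adjusted p = 0.514), and 0.68 without the third KO RA library (edgeR adjusted p = 0.228).

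Erlin1 lay on the other side, at 11.96, 13.2 and 16.1 CPM in KO RA, below every KO NO library. Its log2 fold change was −0.61 (SE 0.24, edgeR adjusted p = 0.151) with all libraries and −0.75 (SE 0.22, edgeR adjusted p = 0.0437) without the third KO RA library. Its partner Erlin2 was at 24.6, 21.4 and 20.8 CPM in KO NO and at 24.7, 35.4 and 19.3 CPM in KO RA. Get4 was at 78.2, 56.2 and 58.2 CPM in KO NO and at 45.2, 43.9 and 86.7 CPM in KO RA, with a log2 fold change of −0.13 (edgeR adjusted p = 0.788) that became −0.54 (SE 0.16, edgeR adjusted p = 0.0446) without the third library. Selenos, a selenoprotein that brings p97 to the membrane, was at 59.3, 68.2 and 62.8 CPM in KO NO and at 87.6, 98.2 and 328 CPM in KO RA. The difference on the log2 scale was 1.43 (SE 0.45, edgeR adjusted p = 0.0897) with the third library and 0.54 (edgeR adjusted p = 0.0901) without it, and the libraries of the groups did not overlap in either case. The third KO RA library was also the highest of all libraries for Ufd1 (69.8 CPM), Ngly1 (45.4 CPM), Rnf139 (26.9 CPM) and Derl2 (57.4 CPM). Without it, these genes had log2 fold changes of 0.02, −0.18, 0.05 and −0.39 in KO RA against KO NO.

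In edgeR over all libraries, 1 of 36 ERAD genes was called in KO RA against KO NO (5.48% of all genes), and 3 of 36 passed an unadjusted p of 0.05 (25.2%). Without the third KO RA library 3 of 36 were called (16.0% of all genes), with Tmub1 higher and Erlin1 and Get4 lower. DESeq2 called 2 of 36 (15.3%), Tmub1 and Selenos, and limma-voom called 6 of 36 (27.5%). The libraries did not overlap for 3 members higher after RA (13.2% of all genes) and 5 lower (17.0%). Without the third library these were 11 (27.4%) and 10 (28.3%). Selenos was higher without overlap after RA in both genotypes (4.53% of all genes were), and Nploc4 and Bag6 were lower in both (5.96%).

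**Figure D4:**
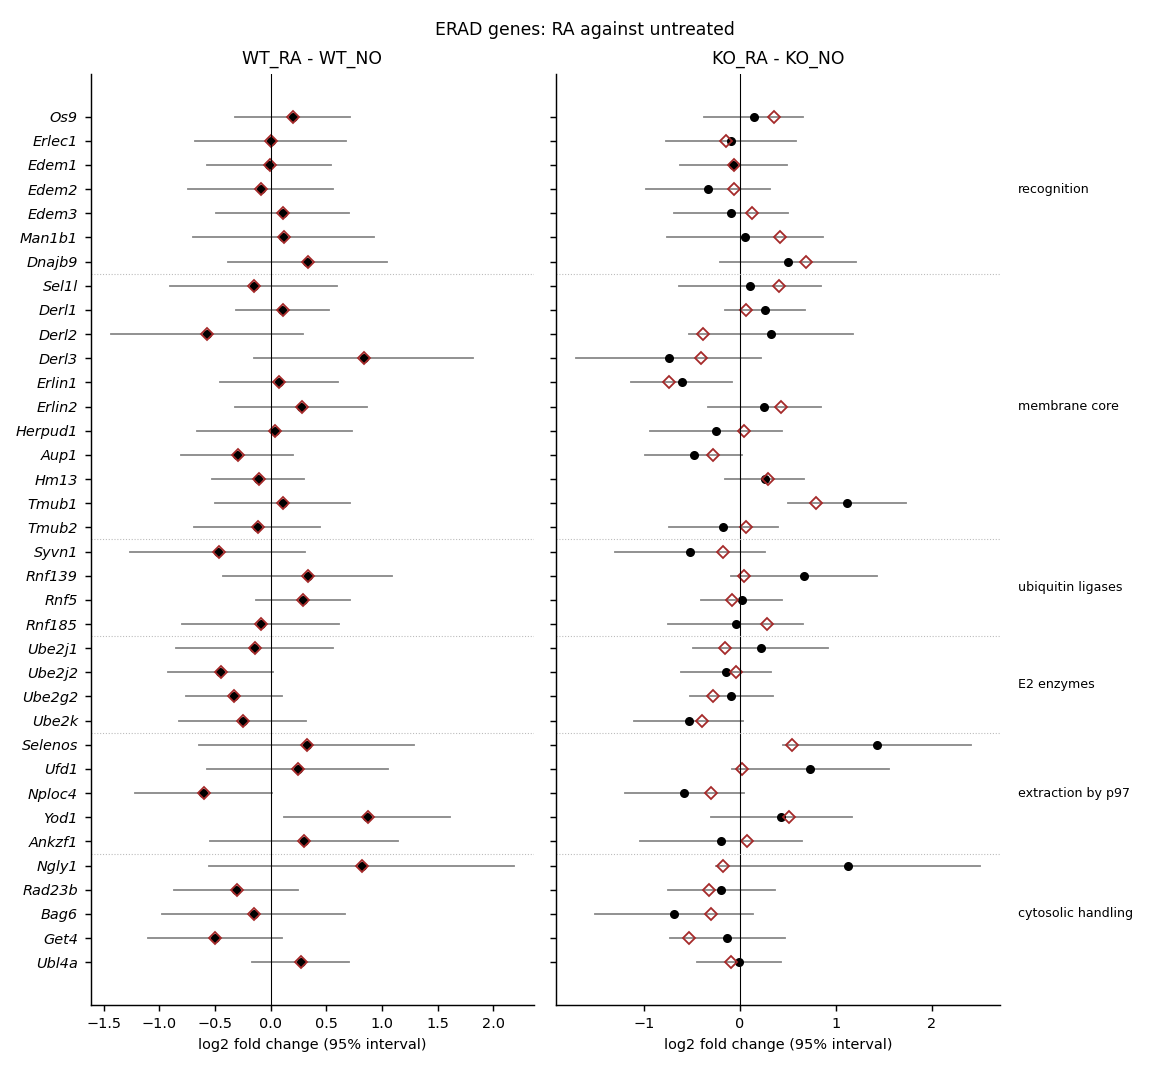
Log2 fold change (x axis) of the 36 ERAD genes between RA and untreated cells, WT on the left and KO on the right, ordered by step. Black points are edgeR estimates over all 12 libraries with 95% intervals, and open diamonds are estimates without the third KO RA library. In the KO, Tmub1 (1.12) is called, and the points of Selenos, Ngly1 and Ufd1 lie far from their diamonds.

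The RA responses of KO and WT cells were then compared with each other (the interaction). No ERAD gene was called by edgeR, and of all genes 0% were. At an unadjusted p under 0.05, 1 of 36 was higher and 1 lower (8.62% of all genes passed), Tmub1 at 1.01 and Derl3 at −1.58 (SE 0.63, edgeR adjusted p = 0.522). Leaving out the third library gave Derl3 a value of −1.25 (edgeR adjusted p = 0.192). Without the third KO RA library, edgeR called 0 of 36 (1.34% of all genes). DESeq2 called 0 of 36 (1.56%) and limma-voom 1 of 36 (5.97%), Ngly1, the cytosolic enzyme that removes glycans. The 95% interval of this difference lay within 2-fold for 13 of the 36 members, so that for the other 23 a 2-fold difference in response was within the interval.

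Close relatives among the members were compared as shares within each library, which do not depend on the scaling between libraries. Derl3 made up 4.53%, 5.42% and 4.33% of the summed CPM of the 3 derlins in WT NO and 11.7%, 8.95% and 7.92% in WT RA. In KO NO its share was 20.9%, 14.3% and 12.5%, and in KO RA 17.03%, 10.2% and 2.50%, so that the WT groups and KO NO did not overlap with one another. Derl2 took 59.9%, 54.7% and 43.2% in WT NO and 37.9%, 40.6% and 40.8% in KO NO. Erlin1 was 36.6%, 40.6% and 35.2% of the erlins in WT NO and 45.9%, 49.5% and 50.2% in KO NO. After RA its share was 31.9%, 40.0% and 32.8% in WT and 32.7%, 27.1% and 45.4% in KO.

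Rnf5 made up 65.4%, 64.0% and 66.9% of the sum of Rnf5 and Rnf185 in WT NO and 73.7%, 68.8% and 70.9% in WT RA. In KO NO it was 45.6%, 56.2% and 50.1%, and in KO RA 43.1%, 45.8% and 72.7%, the last being the third library. Edem3 was 30.4%, 29.8% and 24.4% of the 3 Edem genes in WT NO and 40.8%, 41.4% and 36.9% in KO NO. It was 28.8%, 32.5% and 30.8% in WT RA and 45.1%, 40.3% and 35.7% in KO RA, and for this gene the KO and WT shares were separate in both conditions with all libraries. Shares were also computed for Os9 with Erlec1, Ube2j1 with Ube2j2 and Tmub1 with Tmub2. For these pairs the KO and WT shares overlapped, untreated and after RA, with all libraries. Os9, for example, was 44.2%, 56.9% and 30.9% of its pair in WT NO and 42.6%, 39.5% and 41.5% in KO NO. No test was made of these shares, and how often shares separate in other gene families was not computed.

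**Figure D5:**
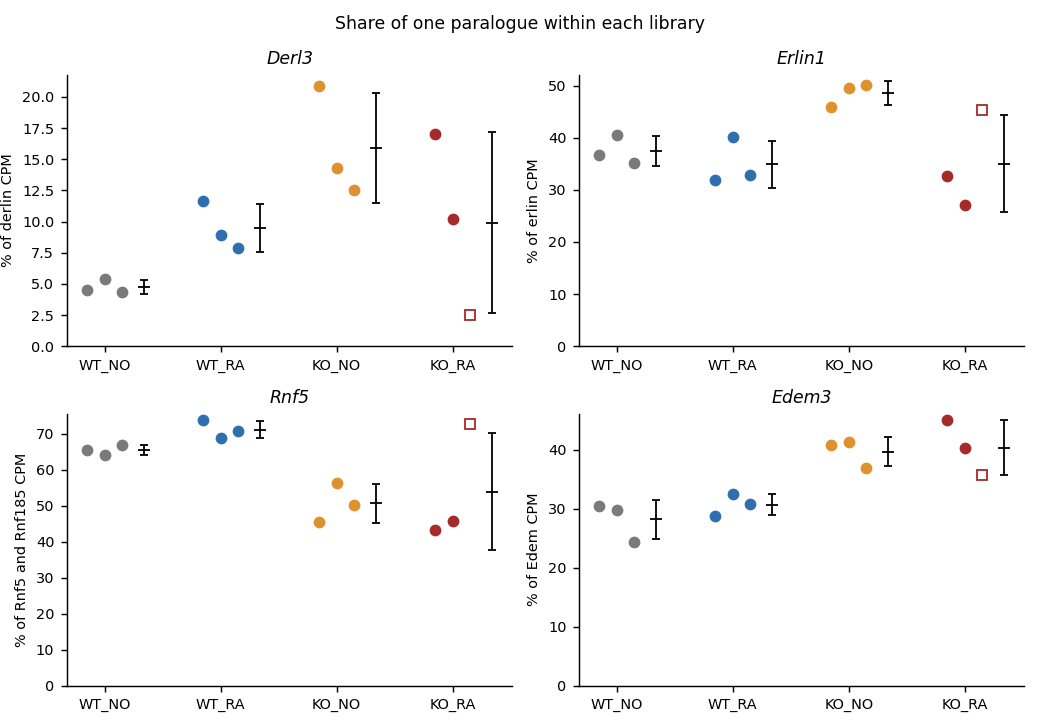
Share (y axis, percent from 0) of Derl3 among 3 derlins, Erlin1 among 2 erlins, Rnf5 in the sum of Rnf5 and Rnf185, and Edem3 among 3 Edem genes, in each library. Points are libraries, the open square is the third KO RA library, and bars are the mean ± SD of 3 libraries. Derl3, Erlin1 and Edem3 have larger shares, and Rnf5 a smaller one, in KO NO than in WT NO.

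A second list of 42 ERAD genes outside the members, Faf2 and Vcp among them, was read for comparison. In KO NO against WT NO, 1 of 42 was called by edgeR, the deubiquitinase Usp25, which fell from 8.49, 9.54 and 12.6 CPM to 3.19, 3.94 and 4.02 CPM (log2 fold change −1.46, SE 0.26, edgeR adjusted p = 0.0266). That call was lost when either of the first 2 WT NO libraries, or any WT RA or KO NO library, was left out. Over all genes, 1.14% were called there. Over the list, the median difference was 0.06 on the log2 scale, against −0.02 over all genes. Ubxn4, which the study named with Derl3 and Erlin1, was at 48.2, 59.2 and 34.0 CPM in WT NO. It was at 78.5, 71.8 and 70.5 CPM in KO NO, without overlap (15.5% of all genes were higher so). Its libraries were also higher without overlap in KO RA than in WT RA (9.97% of all genes). It was not called by edgeR over all libraries in either comparison. After RA, 0 of the 42 were called by edgeR in KO RA against WT RA (1.24% of all genes) and 5 passed an unadjusted p of 0.05 (17.6%), with a median of −0.05 against 0.09 over all genes. DESeq2 called 1 of 42, Stub1 (7.54% of all genes), and limma-voom 7 (18.1%). Stub1 also lies on chromosome 17. Relative to the median of that chromosome with all libraries, its log2 fold change was −0.05 untreated and −0.44 after RA. The value after RA includes the third KO RA library, where Stub1 was at 23.5 CPM, against 44.1 and 47.9 CPM in the first 2. When the third KO RA library was left out, edgeR called 2, both lower (9.85%), and the median was 0.0035. Fbxo2, an F-box protein that binds glycans, fell with RA in both genotypes, the only one of the 42 called by edgeR over all libraries in either RA comparison (0.406% of all genes were called in WT and 5.48% in KO). It was at 2.44 to 4.21 CPM in WT NO and 0.481 to 0.824 CPM in WT RA (log2 fold change −2.32, edgeR adjusted p = 0.0364), and at 1.48 to 2.05 CPM in KO NO and 0.361 to 0.496 CPM in KO RA (log2 fold change −1.96, edgeR adjusted p = 0.0193, and −2.06 without the third KO RA library, edgeR adjusted p = 0.0106). Vcp, the gene of p97, was at 359, 348 and 205 CPM in WT NO and 325, 291 and 288 CPM in KO NO (log2 fold change −0.01, edgeR adjusted p = 0.998). After RA it was at 203, 231 and 196 CPM in WT and 211, 201 and 103 CPM in KO (log2 fold change −0.29, and −0.03 without the third library, edgeR adjusted p = 0.662 and 0.946).

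Of 8 genes for sensors and factors of the UPR, edgeR over all libraries called 0 in all 5 comparisons. In KO NO against WT NO, 2 of 8 passed an unadjusted p of 0.05 (12.2% of all genes), DESeq2 called 0 (5.68%) and limma-voom 4 (21.6%). The sensors Atf6 and Eif2ak3 and the factor Ddit3 were higher there without overlap (15.5% of all genes) and Atf6b lower (15.2%). Eif2ak3, which encodes the sensor PERK, was at 6.13, 5.58 and 4.46 CPM in WT NO and at 9.40, 10.9 and 9.60 CPM in KO NO (log2 fold change 0.89, SE 0.40). Its edgeR adjusted p was 0.401 with all libraries and 0.0123 without the third KO RA library. The log2 fold changes of the others were 0.61 for Atf6, 0.93 for Ddit3 and −0.46 for Atf6b, with edgeR adjusted p = 0.419, 0.488 and 0.291, and the edgeR adjusted p of Atf6b was 0.0409 without the third library. Atf6b lies on chromosome 17, like Rnf5 and Bag6. Relative to the median of that chromosome with all libraries, its log2 fold change was 0.0013 untreated and −0.05 after RA. The part of the chromosome in its values was not tested. Between KO and WT after RA, 3 of 8 passed an unadjusted p of 0.05 (17.6% of all genes), DESeq2 called 1, Xbp1 (7.54%), and limma-voom 2 (18.1%). In KO RA against KO NO, DESeq2 called 1 of 8 (15.3%), Atf6, which was lower after RA. It was at 12.4, 10.8 and 11.9 CPM in KO NO and at 7.81, 5.79 and 3.96 CPM in KO RA. Hspa5, which encodes the ER chaperone BIP, was at 432, 484 and 335 CPM in WT NO and 490, 504 and 447 CPM in KO NO (log2 fold change 0.20, edgeR adjusted p = 0.895). After RA it was at 289, 352 and 326 CPM in WT and 475, 374 and 709 CPM in KO, all above WT, with a log2 fold change of 0.69 (edgeR adjusted p = 0.239) and of 0.39 without the third KO RA library (edgeR adjusted p = 0.164). Xbp1 was at 23.0, 24.2 and 24.0 CPM in WT RA and 46.0, 33.7 and 51.7 CPM in KO RA, all above WT (log2 fold change 0.88, SE 0.24). Its edgeR adjusted p was 0.0969 with all libraries and 0.0441 without the third KO RA library. A gene count does not tell the spliced form of Xbp1 RNA from the unspliced one.

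Levels of cell type markers were read beside these values. The summed level of 8 mesenchymal markers was 43.6 to 98.9 CPM in WT NO and 96.0 to 265 in WT RA, and 46.8 to 48.1 in KO NO and 202 to 1042 in KO RA, with the highest value in the third KO RA library. Of these markers, Col1a1, Col1a2, Col3a1 and Acta2 rose in KO RA against KO NO (5.48% of all genes were called), and Col1a2 and Col3a1 in WT RA against WT NO (0.406%). Of 8 progenitor markers, Nes, Cdh2, Vim and Sox1 rose in KO RA against KO NO (5.48% of all genes were called). Otx2 was lower there without overlap (17.0% of all genes), at 132, 162 and 161 CPM in KO NO and 82.0, 104 and 19.4 CPM in KO RA. Pax6 was lower in the KO in both conditions (log2 fold change −2.50 untreated and −2.21 after RA, edgeR adjusted p = 0.0264 and 0.0396). In these 2 comparisons, 1.14% and 1.24% of all genes were called. The summed level of the progenitor markers was 509 to 537 CPM in WT NO, 565 to 768 in WT RA, 395 to 445 in KO NO and 820 to 944 in KO RA. Of 7 neuron markers, Tubb3 and Map2 rose in KO RA against KO NO, and their list summed to 80.2 to 109.2, 141 to 161, 71.7 to 89.4 and 143 to 207 CPM in the same order of groups. Rbfox3 went the other way without overlap in the KO (17.0% of all genes), from 1.52, 1.27 and 2.07 CPM to 0.451, 0.784 and 0.0991 CPM. In WT it was also lower after RA without overlap (14.0% of all genes). Of 8 glial markers 2 passed the filter, and Mbp rose in KO RA against KO NO (5.48% of all genes were called). Of 8 endothelial and haematopoietic markers 5 passed, and Kdr and Tek rose there, while Hbb-bs was at 0 in all libraries. The summed level over all libraries was 1.73 to 22.6 CPM for the glial and 6.28 to 42.8 CPM for the endothelial and haematopoietic list. Of 8 pluripotent and germline markers, 4 passed the filter on low counts, and edgeR called 0 of them in all 5 comparisons (0% to 5.48% of all genes). At an unadjusted p under 0.05, 2 were higher in KO NO against WT NO (12.2% of all genes passed). In KO RA against WT RA, 1 was higher and 1 lower (17.6%). Their summed level was 1207 to 2322 CPM in WT NO, 2184 to 2867 in WT RA, 1424 to 1699 in KO NO and 1028 to 1243 in KO RA. In bulk RNA, fewer cells of a type and less RNA per cell cannot be told apart, and the part of these cell types in the values of the ERAD genes was not tested.

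Exons of some members overlap those of other genes, so that reads could be shared, and whether strand was used in counting is not given in the sources used here. On the opposite strand, Derl2 overlaps Mis12, Syvn1 overlaps Mrpl49, Tmub2 overlaps Atxn7l3, Ufd1 overlaps Cdc45, Rnf139 overlaps Tatdn1 and Yod1 overlaps Pfkfb2. On the same strand, Ube2g2 overlaps the gene model Gm49325, whose median of 1686 deposited counts was larger than the 982 of Ube2g2. The values of these members are uncertain to that extent. Derl3, Erlin1, Sel1l, Nploc4 and Bag6 overlap no other gene's exons in this annotation, and Rnf5 and Tmub1 overlap lncRNA genes with medians of 10.3 and 14.5 counts. Rnf185 overlaps the lncRNA gene 8430429K09Rik on the opposite strand (268 counts against 676), and Get4 overlaps Adap1 there (9.12 against 1489).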

How the data were processed

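Gene level was measured by paired-end sequencing of mRNA libraries from 12 cultures of NE-4C cells in 4 groups of 3, named by genotype and treatment in the labels. The authors aligned reads to GRCm39 and quantified them with STAR and Salmon in the nf-core RNA-Seq pipeline, and deposited estimated counts per gene that are scaled for transcript length and not normalized between libraries. The length scaling was checked on 3851 genes. It makes levels of long and short genes comparable, but the values are not numbers of reads.

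Estimated counts were rounded to whole numbers, filtered with filterByExpr over the 4 groups (16502 of 57010 genes kept) and tested with the robust quasi-likelihood test of edgeR 4.0.16 in R 4.3.3, with TMM factors, all 12 libraries and one coefficient per group. P-values were adjusted by Benjamini-Hochberg over all genes tested and called under 0.05, two-sided. The common dispersion was 0.215, with 8 residual degrees of freedom. Library totals of 17370069 to 30738717 put 3 counts at 0.0838 to 0.297 CPM. Intervals are 95% intervals of the fit. Alternatives were DESeq2 1.42.0, limma-voom (limma 3.58.1) with quality weights, other filters and size factors, only the groups compared, a replicate block and each library left out. The scripts were tested on simulated data. Promoters were searched in Python 3.11.15.

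The members and gene lists were chosen with earlier results of these data known. Derl3, Erlin1 and Ubxn4 were also named by the study from these libraries, so that counts from these lists are not independent evidence. Values per library are given for members called in a comparison with all libraries or without the third KO RA library, for the member of each step with the smallest p in KO NO against WT NO and in WT RA against WT NO, and for the derlins and erlins. Genes of the other lists are named where edgeR called them, to at most 5 a list, with Vcp, Faf2, Hspa5 and Xbp1 in any case. Ubxn4 is given because the study named it. Other members named for their place in the order, their spread, their overlap or the third KO RA library were chosen after their values were seen, as were the progenitor markers named, Rbfox3, Pou5f1, Stub1, Atf6, Atf6b, Eif2ak3 and Ddit3. Identity between the proteins was not computed here.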

Additional observations from a re-analysis of the deposited data

How the results depend on the processing

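The number of ERAD members called depended on the test and on the third KO RA library. In KO NO against WT NO, edgeR over all libraries called 0 members, DESeq2 2, limma-voom 8, edgeR on only the groups compared 2 and DESeq2 on those groups 3. Leaving out each library in turn gave 0 to 3, with 3 without the third KO RA library and 1 (Derl3) without the first. In KO RA against WT RA, edgeR called 0, DESeq2 2 and limma-voom 9, and leaving out each library gave 0 to 4, with 4 only without the third KO RA library. In WT RA against WT NO, edgeR called 0, limma-voom 10 and DESeq2 on only those groups 2, and leaving out each library gave 0 to 2. In KO RA against KO NO, edgeR called 1, DESeq2 2 and limma-voom 6, while no filter, only the groups compared (edgeR or DESeq2) and the replicate block each gave 0, and leaving out each library gave 0 to 3. For the difference between RA responses, edgeR called 0 and limma-voom 1, and leaving out each library gave 0 to 0.

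For the other 42 ERAD genes, the numbers in KO NO against WT NO were 1 in edgeR, 3 in DESeq2, 10 in limma-voom, 2 in edgeR and 6 in DESeq2 on only those groups, 0 without a filter, 0 with the replicate block and 0 to 5 with each library left out. In KO RA against WT RA they were 0, 1 in DESeq2, 7 in limma-voom and 0 to 2. In WT RA against WT NO they were 1, 2 in DESeq2, 9 in limma-voom, 0 without a filter, with at least 10 counts in every library or with the block, and 0 to 2. In KO RA against KO NO they were 1, 6 in DESeq2, 2 with DESeq2 size factors, 12 in limma-voom, 0 with the block, 0 in edgeR and 3 in DESeq2 on only those groups, and 0 to 8. For the difference between responses they were 0, 5 in limma-voom and 0 to 0.

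The direction held in all alternatives for Derl3 (log2 fold change 1.54 to 2.06), Erlin1 (0.80 to 1.20) and Rnf5 (−0.73 to −0.50) in KO NO against WT NO, and for Tmub1 in KO RA against KO NO (0.79 to 1.38, adjusted p = 0.00491 to 0.191 over edgeR, DESeq2 and limma). Get4 in KO RA against KO NO turned from −0.13 to 0.08 without the first KO NO library, 0.09 without the first and 0.10 without the second KO RA library, and was −0.54 without the third. Without TMM factors, the summed level of the members was 1672 CPM in WT RA and 2451 CPM in KO NO. The causes were not tested. The labels do not say whether libraries with the same replicate number belong together. Of 18 pairs with the same number, 0 had a correlation of deviations over 0.1 (−0.215 to 0.0853). With 3 libraries per group, these values cannot exclude a shared passage. With the replicate block, calls over all genes went from 188 to 56, 205 to 59, 67 to 10 and 904 to 467 in the comparisons in the order above.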
